A study of Mus musculus with 10 samples.

Results

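Ccr6, Sdc1, Serpinb1a, Il17re, Il1r1, Tmem176a, Tmem176b, Blk, Aqp3 and Ramp1 are 10 genes known from the surface and the effector program of NKT17 cells. They were listed by name, and every probe set that the platform annotation gives to 1 of these genes alone was taken. The 10 genes, and the gene lists used below, were chosen with earlier results of these data known. Shares over all probe sets are therefore set beside their counts for scale only. The 10 genes had 24 of the 45037 probe sets on the arrays, and stand among 18193 genes with a probe set of their own. Each gene had at least 1 probe set that could be tested, and 21 of the 24 could. The other 3, of Il1r1 (1459777_at) and Aqp3 (1447727_at and 1422008_a_at), were too dim.

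Invariant natural killer T (iNKT) cells are T cells of the thymus whose semi-invariant receptor sees lipids presented by CD1d. They divide into effector subsets, of which NKT17 cells secrete interleukin 17 and carry receptors that let them home to epithelia and respond to interleukin 1. Id3 is an inhibitor of E proteins, transcription factors that bind DNA at short sites called E-boxes and act throughout T cell development.

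RNA was measured in sorted thymic iNKT cells on 10 Affymetrix arrays in 4 groups: Id3KO stage 2 (3 arrays), WT stage 2 (3), Id3KO stage 1 (2) and WT stage 1 (2). Every animal was C57BL/6 and 6 weeks old, and every population bound the tetramer and lacked CD24 and NK1.1. Stage 2 cells carried CD44 and stage 1 cells did not. Which Id3 allele the Id3KO mice carry, and whether the loss is confined to some cells, is not given in the sources here, nor is any scan or processing batch. The titles call the replicates biological but do not say whether each came from 1 animal or from a pool. Stage 1 arrays number 2 per genotype, which limits every stage 1 value. In sorted bulk cells, fewer cells of a type and less RNA per cell cannot be told apart.

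Id3, the targeted gene, stood at 54.2 to 69.8 on the Id3KO stage 2 arrays against 818 to 1065 on the WT stage 2 arrays, and at 63.4 to 65.4 against 1282 to 1289 at stage 1. The sources used here do not say whether its probe set lies in the deleted sequence. Zbtb16, which encodes PLZF, the factor that marks iNKT cells, was well above the median of the table on all 10 arrays (889 to 1205). Values are intensities, normalized by the authors, and the arrays' own medians lay between 54.8 and 55.5. A probe set was tested when it exceeded an intensity of 55.1, the median of the whole table, on at least 2 arrays, and that intensity is called the testing level here. Levels of different probe sets are not compared with each other. Log2 fold changes carry the standard error of limma's moderated fit, and adjusted p-values were taken over all 25061 tested probe sets.

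The first comparison asks how these genes differ without Id3 in stage 2 cells. At stage 2, 8 of the 10 genes were lower in Id3KO than in WT cells by their brightest probe set, and 0 were higher. Among all tested probe sets, 2.39% were called lower and 1.82% higher in this comparison, 4.21% in all. These shares, here and below, count probe sets and not genes. In a fit with 1 probe set per gene, 515 of 11951 genes were called lower and 371 higher. For 9 of the 10 genes every Id3KO array was below every WT array, against 10.5% of all tested probe sets. The median log2 fold change of the 10 genes was -2.05, against 0.01 over all tested probe sets. Blk and Ramp1 did not pass the test. With only the 6 stage 2 arrays in the fit, 7 genes passed and Aqp3 did not (adjusted p = 0.0513), and Ccr6 alone passed a test against a change of 2-fold.

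**Figure D1:**
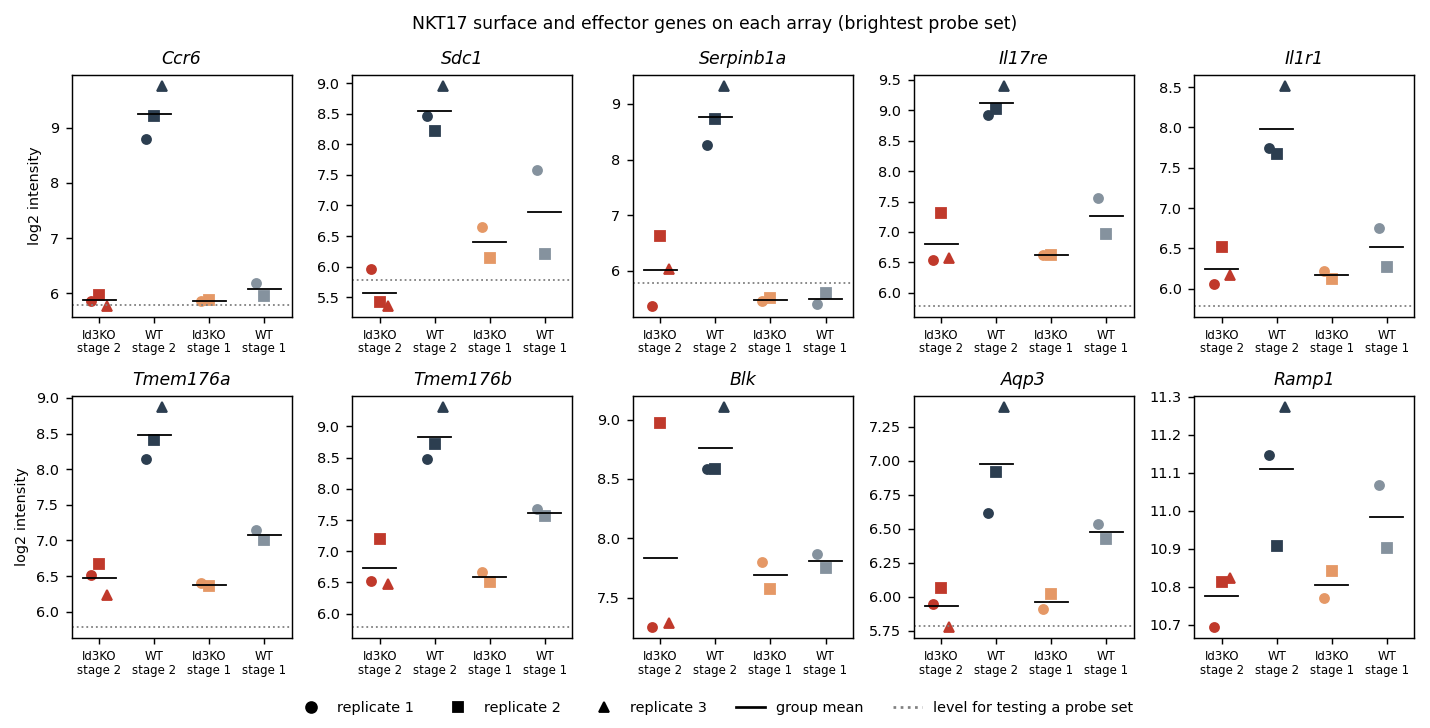
Log2 intensity of the brightest probe set of each of the 10 genes on each array, with 1 panel per gene, groups along the horizontal axis, symbols for replicates, a bar for the group mean and, where in range, a dotted line for the testing level. The 3 WT stage 2 arrays stand above every other array for 8 genes, while Blk has 1 Id3KO stage 2 array among them and Ramp1 a WT stage 1 array. This was not counted over all tested probe sets.

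Ccr6 encodes the chemokine receptor for Ccl20 and guides interleukin 17 producing cells to barrier tissues. The single probe set of Ccr6 (1450357_a_at) had intensities of 58.5, 63.0 and 54.6 on the Id3KO stage 2 arrays, against 446, 589 and 867 on the WT stage 2 arrays. At stage 1 the intensities were 58.0 and 58.8 in Id3KO cells, against 73.1 and 62.0 in WT cells. Only the WT stage 2 arrays stood far from the testing level, and the Id3KO arrays of both stages lay close to it. Ccr6 was 10.4-fold lower in Id3KO stage 2 cells (log2 -3.38 ± 0.21, SE, n = 3 each, limma adjusted p = 0.000206).

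The promoter of Ccr6 is shown because it held the only match among these genes to AGGTCA, a core motif of nuclear receptors such as Rora. Windows of 300 bases, from 250 before to 50 after a transcript start, came from RefSeq on the mouse build GRCm38.p6. They covered 13 starts of 8 of the 10 genes, all but Serpinb1a and Blk. Each window was searched on both strands for the E-box CANNTG, for CAGGTG, a form of the E-box that E proteins favour and that is counted within CANNTG as well, and for AGGTCA. The Ccr6 window at chr17:8235793-8236092, plus strand, holds AGGTCA in the opposite orientation 44 bases before the start and an E-box 26 bases after it, both in capitals.
Ccr6 promoter: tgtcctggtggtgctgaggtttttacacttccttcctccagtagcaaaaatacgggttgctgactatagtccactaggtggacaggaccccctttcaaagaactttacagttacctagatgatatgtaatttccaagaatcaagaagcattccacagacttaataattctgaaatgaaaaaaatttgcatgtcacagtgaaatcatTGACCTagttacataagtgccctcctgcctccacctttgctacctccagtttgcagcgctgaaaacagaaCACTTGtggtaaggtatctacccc
The motif AGGTCA was present in 16.3% of all 32851 promoter windows, and in 1 of the 13 windows of these genes. A match to these letters is a description of the window, not a site shown to be bound.

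Il1r1, the signalling receptor for interleukin 1, had intensities of 66.6, 91.2 and 71.7 on the Id3KO stage 2 arrays (1448950_at), against 214, 203 and 367 on the WT stage 2 arrays. At stage 1 they were 74.6 and 69.4 in Id3KO cells, against 108 and 77.3 in WT cells. The stage 2 genotypes stood apart, and the highest of the 3 WT stage 2 arrays was well above the other two. The difference at stage 2 was 3.32-fold (log2 -1.73 ± 0.23, SE, n = 3 each, limma adjusted p = 0.00532).

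Il17re, the chain that pairs with Il17ra to bind interleukin 17C, had 3 tested probe sets. Its brightest (1426566_s_at) had intensities of 92.6, 159 and 95.4 on the Id3KO stage 2 arrays, against 483, 517 and 677 on the WT stage 2 arrays. At stage 1 it stood at 99.0 and 98.2 in Id3KO cells, against 187 and 126 in WT cells. One Id3KO stage 2 array, replicate 2, lay above the other Id3KO arrays and still below every WT stage 2 array. Il17re was 4.94-fold lower in Id3KO stage 2 cells (log2 -2.30 ± 0.23, SE, n = 3 each, limma adjusted p = 0.00145).

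Ramp1 is a small membrane protein that joins the receptor Calcrl to form the receptor for the neuropeptide CGRP. Its brightest probe set (1417481_at) had intensities of 1656, 1798 and 1811 on the Id3KO stage 2 arrays, against 2267, 1919 and 2476 on the WT stage 2 arrays. At stage 1 the values were 1745 and 1835 in Id3KO cells, against 2144 and 1914 in WT cells. All 5 Id3KO arrays were below all 5 WT arrays, but by little, and this was not counted over all tested probe sets. The stage 2 log2 fold change was -0.33 ± 0.10 (SE, n = 3 each), with a 95% interval from -0.57 to -0.10, and did not pass the test (limma adjusted p = 0.127).

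Sdc1 encodes syndecan 1 (CD138), a surface proteoglycan used in mice to mark both NKT17 cells and plasma cells. Its brightest probe set (1437279_x_at) had intensities of 62.0, 42.7 and 41.0 on the Id3KO stage 2 arrays, against 354, 298 and 498 on the WT stage 2 arrays. At stage 1 it had 100.5 and 70.9 in Id3KO cells, against 191 and 74.1 in WT cells. The 2 WT stage 1 arrays were far apart, and only 1 of the 3 Id3KO stage 2 arrays was above the testing level. Sdc1 was 7.86-fold lower in Id3KO stage 2 cells (log2 -2.97 ± 0.35, SE, n = 3 each, limma adjusted p = 0.00261), or at least 6.54-fold with values under that level raised to it.

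Aqp3 encodes a channel for water and glycerol in the plasma membrane. Its brightest probe set (1450460_at) had intensities of 61.8, 66.9 and 54.8 on the Id3KO stage 2 arrays, against 98.3, 121 and 168 on the WT stage 2 arrays. At stage 1 they were 60.0 and 65.0 in Id3KO cells, against 92.5 and 85.7 in WT cells. All 5 WT arrays were above all 5 Id3KO arrays, which was not counted over all tested probe sets. Aqp3 was 2.07-fold lower in Id3KO stage 2 cells (log2 -1.05 ± 0.18, SE, n = 3 each, limma adjusted p = 0.0130).

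Tmem176a and Tmem176b encode membrane proteins related to the MS4A family and are expressed in interleukin 17 producing lymphocytes. The brightest probe set of Tmem176a (1423909_at) had intensities of 91.8, 102 and 75.4 on the Id3KO stage 2 arrays, against 283, 339 and 471 on the WT stage 2 arrays. At stage 1 it had 84.5 and 82.0 in Id3KO cells, against 141 and 129 in WT cells. The single probe set of Tmem176b (1418004_a_at) had 92.1, 147 and 88.8 on the Id3KO stage 2 arrays, against 356, 422 and 638 on the WT stage 2 arrays. For both genes the WT stage 2 arrays were highest, the WT stage 1 arrays came next and the Id3KO arrays of both stages were lowest, with no overlap between these 3 levels. This order was not counted over all tested probe sets. At stage 1 Tmem176b had 101 and 91.2 in Id3KO cells, against 204 and 190.0 in WT cells. In Id3KO stage 2 cells Tmem176a was lower (log2 -2.00 ± 0.18, SE, n = 3 each, limma adjusted p = 0.000854). Tmem176b was 4.31-fold lower (log2 -2.11 ± 0.24, SE, n = 3 each, limma adjusted p = 0.00230).

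The promoters of this pair are shown because the genes are neighbours that are read in opposite directions, and both fell. RefSeq gives starts 109 to 668 bases apart, and their windows overlap by up to 219 bases. The windows printed are at chr6:48841233-48841532, plus strand, for Tmem176a and chr6:48841088-48841387, minus strand, for Tmem176b, on GRCm38.p6, and share 155 bases. Capitals mark E-boxes.
Tmem176a promoter: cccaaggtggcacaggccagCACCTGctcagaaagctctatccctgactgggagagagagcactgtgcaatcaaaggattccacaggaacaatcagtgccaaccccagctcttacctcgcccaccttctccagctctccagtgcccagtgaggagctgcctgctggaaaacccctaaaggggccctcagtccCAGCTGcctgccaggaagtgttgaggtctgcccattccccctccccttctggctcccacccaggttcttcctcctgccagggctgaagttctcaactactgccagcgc
Tmem176b promoter: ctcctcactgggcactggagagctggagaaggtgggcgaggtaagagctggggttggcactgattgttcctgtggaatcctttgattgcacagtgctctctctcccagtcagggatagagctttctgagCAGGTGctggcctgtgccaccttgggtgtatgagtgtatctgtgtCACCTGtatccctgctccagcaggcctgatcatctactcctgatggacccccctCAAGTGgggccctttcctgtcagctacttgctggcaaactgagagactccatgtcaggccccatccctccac
In the Tmem176a window, CAGGTG is read on the opposite strand 230 bases before the start, as CACCTG. The same site stands 121 bases before the start of Tmem176b, whose window holds a further CACCTG 76 bases before it. Of the 13 windows, 5 held CAGGTG, from 4 genes (Aqp3, Ramp1, Tmem176a and Tmem176b), and these include overlapping windows of the pair. Over all promoter windows the share was 20.2%. The general E-box was in all 13 windows, and in 72.3% of all.

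Serpinb1a encodes an intracellular inhibitor of serine proteases such as neutrophil elastase. Its brightest probe set (1416318_at) had intensities of 41.1, 98.5 and 65.4 on the Id3KO stage 2 arrays, against 307, 423 and 644 on the WT stage 2 arrays. At stage 1 it had 43.6 and 45.6 in Id3KO cells, against 42.2 and 48.2 in WT cells. All 4 stage 1 arrays were below the testing level, and so was 1 of the 3 Id3KO stage 2 arrays. Serpinb1a was 6.81-fold lower in Id3KO stage 2 cells (log2 -2.77 ± 0.33, SE, n = 3 each, limma adjusted p = 0.00288).

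Blk encodes a Src family kinase of B cells that mouse gamma delta T cells need to make interleukin 17. Its probe set (1422775_at) had intensities of 152, 502 and 156 on the Id3KO stage 2 arrays, against 384, 383 and 552 on the WT stage 2 arrays. At stage 1 it had 223 and 190.4 in Id3KO cells, against 233 and 215 in WT cells. Replicate 2 of Id3KO stage 2 was above 2 of the 3 WT stage 2 arrays, so the groups overlapped, while the other Id3KO stage 2 arrays were the lowest of all 10. The stage 2 log2 fold change was -0.92 ± 0.41 (SE, n = 3 each), with a 95% interval from -1.85 to 0.0033 (limma adjusted p = 0.298). Without that 1 array it was -1.49, with an adjusted p of 0.00534.

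**Figure D2:**
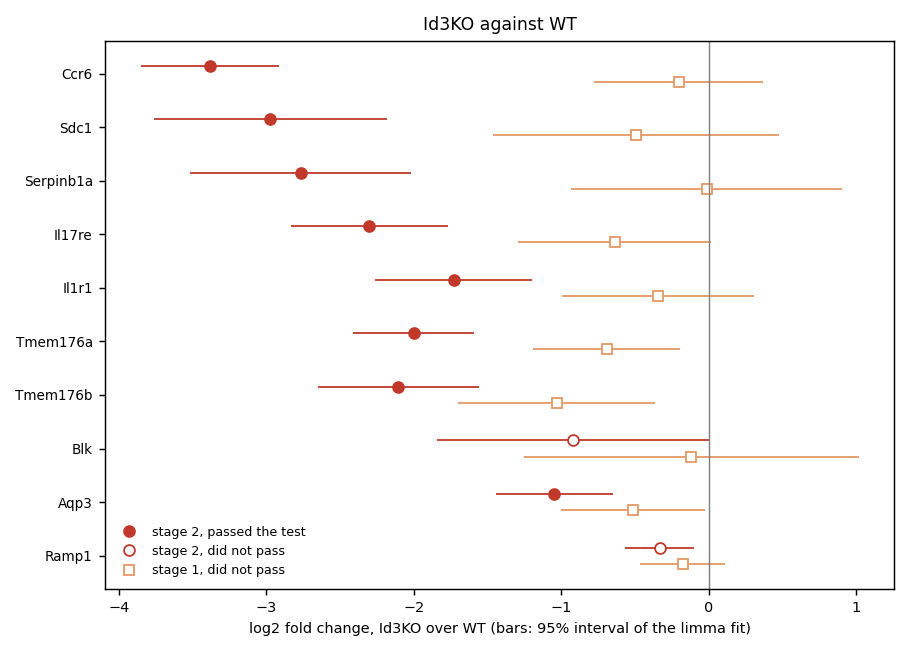
Log2 fold change of Id3KO over WT for the 10 genes at stage 2 (circles) and stage 1 (squares), with 95% intervals of the limma fit and filled symbols where the test was passed. At stage 2 the values run from -3.38 for Ccr6 to -0.33 for Ramp1, and at stage 1 Tmem176b is the lowest, at -1.03, while Serpinb1a was below the testing level on all stage 1 arrays.

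Several genes had more than 1 probe set, which gives a check of each call by other oligos for the same gene. Over the 21 tested probe sets, 14 were lower in Id3KO stage 2 cells and 0 were higher, against 2.39% and 1.82% of all tested probe sets. Their median log2 fold change was -1.05, against 0.01 over all. For 17 of the 21 the Id3KO arrays were lower without overlap, against 10.5% of all tested probe sets. The counts of 14 and 17 include Serpinb1a 1448301_s_at and Il17re 1439357_at, which could be tested only through the WT stage 2 arrays. All 3 probe sets of Tmem176a fell, with log2 fold changes of -2.00, -1.74 and -2.27. Its dimmest, 1425603_at, had 47.5, 61.9 and 45.5 on the Id3KO arrays, against 229.7, 220.2 and 296 on the WT arrays (limma adjusted p = 0.000476). Of these Id3KO arrays, 1 was above the testing level.

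Of the 4 probe sets of Sdc1, 3 fell, by -2.97, -1.93 and -0.96 on the log2 scale. The fourth, 1448158_at, had 53.4, 59.3 and 57.0 on the Id3KO stage 2 arrays, against 62.5, 54.4 and 51.9 on the WT stage 2 arrays, and thus stayed near the testing level in both (log2 0.01, adjusted p = 0.978). The second probe set of Serpinb1a, 1448301_s_at, was above the testing level on 1 Id3KO stage 2 array, on 3 WT stage 2 arrays and on 0 at stage 1. It would not have been tested without the WT stage 2 arrays, so it is no independent check. It also fell, with 36.8, 55.2 and 45.2 in Id3KO stage 2 cells against 67.4, 84.6 and 84.0 in WT stage 2 cells (log2 -0.79, adjusted p = 0.0216). That call was lost in 4 settings beside a test against a 2-fold change: only the 6 stage 2 arrays (adjusted p = 0.0709), without WT stage 2 replicate 2 (0.0811) or 3 (0.0872), and without Id3KO stage 2 replicate 3 (0.0544).

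Of the 3 probe sets of Il17re, 2 fell. The dimmest, 1439357_at, was below the testing level on all 3 Id3KO stage 2 arrays (43.3, 45.8 and 48.1, against 71.5, 66.2 and 88.7 in WT), which makes it at least 1.36-fold lower (adjusted p = 0.0115). The remaining one, 1452109_at, had 153, 154 and 141 against 180.0, 195 and 222 and did not pass (log2 -0.41, adjusted p = 0.0880). The second probe set of Aqp3, 1422007_at, was at 0.01 (adjusted p = 0.959), and those of Ramp1, 1447474_at and 1431413_at, at 0.12 (0.676) and -0.44 (0.171). On this platform the endings _s_at and _x_at mark probe sets whose oligos can also bind other transcripts, which applies to the brightest ones of Il17re and Sdc1. Sdc1 also fell by 2 probe sets without such an ending. Il17re did so by 1, 1439357_at, which was above the testing level on the WT stage 2 arrays alone. It was tested only through those arrays, so its fall is no independent check.

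**Figure D3:**
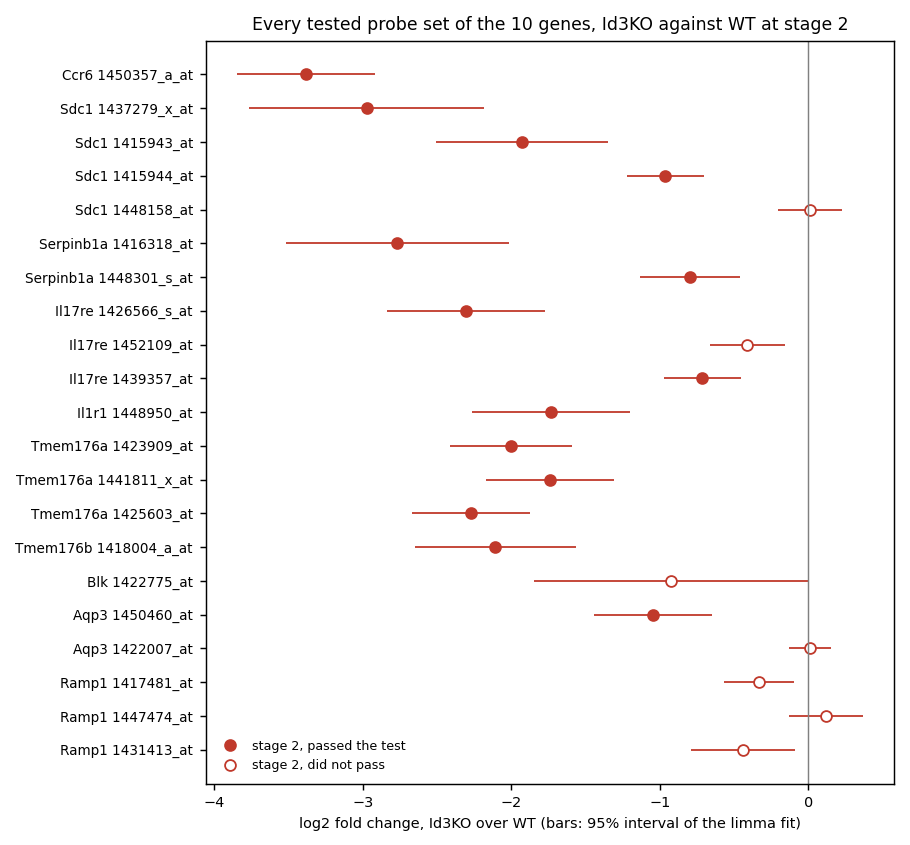
Log2 fold change of Id3KO over WT at stage 2 for each of the 21 tested probe sets, with 95% intervals of the limma fit and filled circles where the test was passed. The 14 filled circles all lie left of 0, and the 7 open ones include all 3 probe sets of Ramp1 and 1 each of Sdc1, Il17re, Aqp3 and Blk.

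The same genotype comparison at stage 1 concerns cells that have not yet acquired CD44. By limma, 0 of the 10 genes passed at stage 1, and 3 had an unadjusted p under 0.05. How many of all tested probe sets had one was not counted, here or in the comparisons below. By adjusted p, 0.343% of all tested probe sets were called lower at stage 1 and 0.459% higher, 0.802% in all. The log2 fold changes of all 10 genes were below 0, with a median of -0.42 against -0.01 over all probe sets, but that of Sdc1 was 0.19 without WT stage 1 replicate 1, and that of Serpinb1a, whose stage 1 arrays were all below the testing level, up to 0.080 without 1 array. For 7 of the 10 both Id3KO arrays were below both WT arrays, against 22.8% of all tested probe sets.

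Tmem176b had the lowest value, -1.03 ± 0.29 (log2, SE, n = 2 each, 95% interval from -1.70 to -0.37, limma adjusted p = 0.215). Tmem176a (-0.69, adjusted p = 0.279), Il17re (-0.64, 0.493), Aqp3 (-0.51, 0.447) and Sdc1 (-0.49, 0.781) followed. Ccr6, which differed most at stage 2, stood at -0.21 ± 0.25 (SE, n = 2 each, 95% interval from -0.78 to 0.37, limma adjusted p = 0.868), with WT arrays only just above Id3KO arrays. Serpinb1a stood at -0.02 (adjusted p = 0.995) with every array below the testing level, so it gives no fold at stage 1. The intervals of Il1r1 (-0.34, up to 0.31), Blk (-0.12, from -1.25 to 1.01) and Ramp1 (-0.18, from -0.47 to 0.11) also span 0.

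Stage 2 was then set against stage 1 within each genotype, which asks how the genes differ between CD44-bearing and CD44-lacking cells. These comparisons share their arrays with those of genotype. In Id3KO cells, 0 of the 10 genes passed limma's test, with 0 at an unadjusted p under 0.05, and 0% of all probe sets were called. The median log2 fold change was 0.09. Sdc1 was at -0.82 ± 0.39 (SE, n = 3 against 2), its 3 stage 2 arrays all below its 2 stage 1 arrays, as for 8.91% of all tested probe sets (with 9.45% the other way). For Serpinb1a both stage 1 arrays and 1 of the 3 stage 2 arrays were below the testing level, and the arrays of the stages overlapped. The other 8 genes lay between -0.03 and 0.18, among them Ccr6 at 0.0047 (95% interval from -0.52 to 0.53).

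In WT cells the 10 log2 fold changes of stage 2 over stage 1 were all above 0, with a median of 1.43 against -0.01 over all probe sets. Of the 10 genes, 1 passed, Ccr6, which was 9.07-fold higher at stage 2 (log2 3.18 ± 0.23, SE, n = 3 against 2, limma adjusted p = 0.00358). Across all tested probe sets 0.012% were called higher and 0.00399% lower, 0.016% in all. An unadjusted p under 0.05 was reached by 8 of the 10 genes, without a count over all probe sets to set beside it. The stage 2 arrays lay above the stage 1 arrays without overlap for 9 of the 10, all but Ramp1, against 11.8% of all tested probe sets.

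Serpinb1a, with both WT stage 1 arrays below the testing level, was at least 7.94-fold higher at stage 2 in WT cells, just short of the threshold (limma adjusted p = 0.0515). The other log2 fold changes were those of Il17re (1.85, adjusted p = 0.0850), Sdc1 (1.66, 0.274), Il1r1 (1.46, 0.137), Tmem176a (1.40, 0.0856) and Tmem176b (1.22, 0.242), while Blk (0.95, 0.654), Aqp3 (0.50, 0.567) and Ramp1 (0.12, 0.860) had the smallest. The call of Ccr6 was lost without WT stage 1 replicate 1 (adjusted p = 0.0716) or replicate 2 (0.0820), with only the 5 WT arrays (0.158), and in the test against a 2-fold change (0.0821), while its log2 fold change stayed between 2.93 and 3.41.

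**Figure D4:**
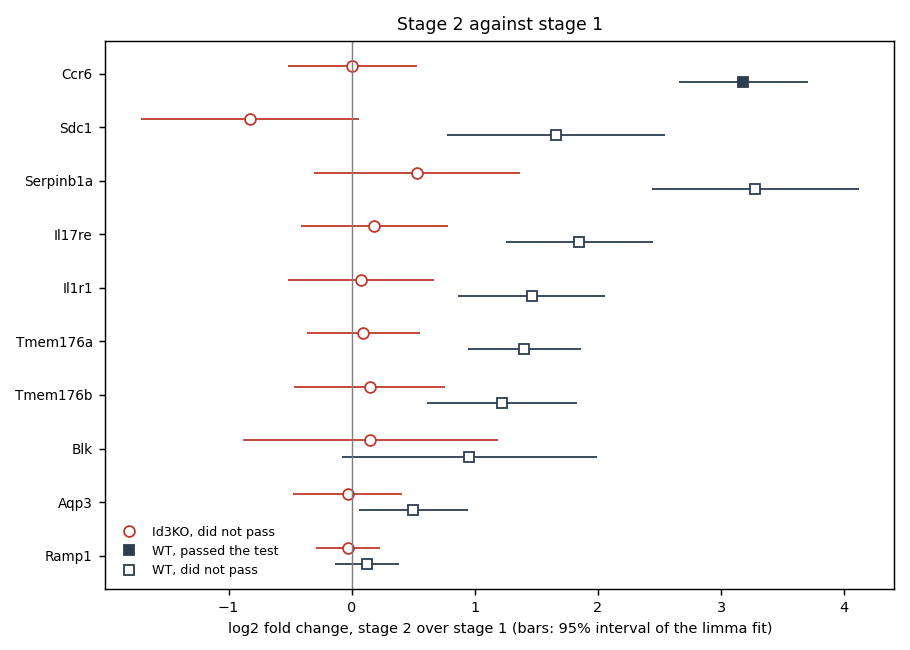
Log2 fold change of stage 2 over stage 1 for the 10 genes in Id3KO (circles) and WT cells (squares), with 95% intervals of the limma fit and filled symbols where the test was passed. The Id3KO intervals all include 0, and in WT cells Ccr6, at 3.18, is the filled one, while both values of Serpinb1a are set against stage 1 arrays below the testing level.

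Whether the stage difference itself differs between the genotypes was tested as an interaction. By limma 0 of the 10 genes passed, and 0% of all probe sets were called by adjusted p. An unadjusted p under 0.05 was held by 7 of the 10, again without a count over all probe sets. Ccr6 came closest, at -3.18 ± 0.33 (log2, SE, adjusted p = 0.0644), and Sdc1 stood at -2.48 ± 0.55 (adjusted p = 0.507). Serpinb1a also did not pass (adjusted p = 0.474), and no size is given for it because its 4 stage 1 arrays were below the testing level. Il17re stood at -1.67 (95% interval from -2.51 to -0.82), Il1r1 at -1.39, Tmem176a at -1.31 and Tmem176b at -1.07. Blk, Aqp3 and Ramp1 had intervals that span 0. The interaction of Ccr6 passed in 5 of 19 settings, among them without WT stage 2 replicate 1 (adjusted p = 0.0187) or replicate 3 (0.0170).

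Ordered by group mean, WT stage 2 was highest for all 10 genes. Its arrays were apart from those of the next group for 8 of them, and overlapped it for Blk and Ramp1. Neither the order nor this gap was counted over all tested probe sets. WT stage 1 came second for 8 genes, and Id3KO stage 2 for Serpinb1a and Blk. WT stage 1 and the group after it overlapped for Ccr6, Sdc1, Il17re and Il1r1, and were apart for Tmem176a, Tmem176b, Aqp3 and Ramp1. The 2 Id3KO groups overlapped each other for all genes but Sdc1.

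Replicates of a group also differed in the same direction for many of the genes. Whether this holds for other probe sets on the arrays was not counted. Taking each gene's log2 intensity minus its mean over the 10 arrays, the average over the 10 genes was -0.81, -0.33 and -0.84 on the Id3KO stage 2 arrays, against 1.03, 1.15 and 1.71 on the WT stage 2 arrays. It was -0.65 and -0.73 on the Id3KO stage 1 arrays, against -0.11 and -0.42 on the WT stage 1 arrays. Replicate 3 of WT stage 2 was the highest of its group for 10 of 10 genes. Replicate 2 of Id3KO stage 2 was the highest of its group for 8 of 10, all but Sdc1 and Ramp1, and replicate 1 of WT stage 1 was the higher for 9 of 10, all but Serpinb1a.

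That Id3KO array also had the lowest transcript of Cd44, the marker that separates the stages, in its group. Cd44 stood at 577, 280.1 and 507 on the Id3KO stage 2 arrays, against 653, 797 and 858 on the WT stage 2 arrays, and at 130.3 and 255 in Id3KO stage 1 against 147 and 224 in WT stage 1. The Id3KO stage 2 arrays were below the WT stage 2 arrays without overlap, as for 10.5% of all tested probe sets. The Cd44 difference did not pass (log2 -0.82, limma adjusted p = 0.241). Its part in the values of the 10 genes was not tested. Without replicate 2 of Id3KO stage 2, the same 8 genes passed and Blk was added.

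**Figure D5:**
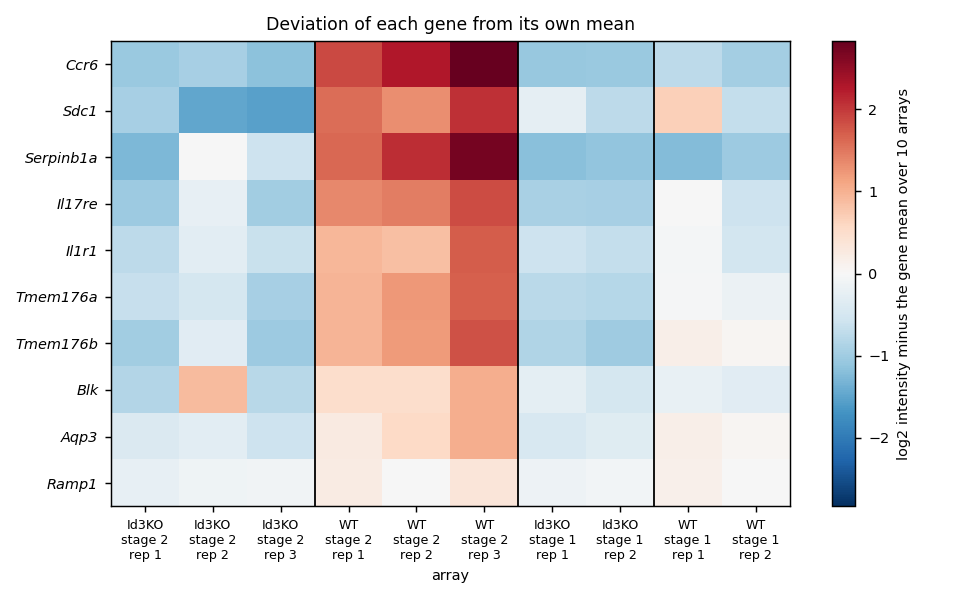
Log2 intensity of each of the 10 genes minus its own mean over the 10 arrays, with genes down the page, arrays along it and colour for the deviation. The WT stage 2 columns are the highest, with averages of 1.03, 1.15 and 1.71, and within Id3KO stage 2 the replicate 2 column is the least low, at -0.33.

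The genes most like this average pattern were sought among 11398 other genes by Pearson's correlation over the 10 arrays, as a description. The 8 closest were Stab2 (r = 0.986), a scavenger receptor, Pxdc1 (0.981), Pde5a (0.981), a phosphodiesterase for cyclic GMP, Krt83 (0.966), Fabp7 (0.966), a fatty acid binding protein, Rhobtb1 (0.964), Susd2 (0.963) and Laptm4b (0.961). The 10 arrays share groups, so a gene that is high in WT stage 2 alone scores high. Each of the 8 was called lower in Id3KO stage 2 cells, with log2 fold changes from -2.03 for Pxdc1 to -0.46 for Fabp7. These calls follow from how the 8 were picked on the same arrays and are no further result. In Id3KO stage 2, the mean log2 intensities of Stab2 (5.59), Pde5a (5.23) and Fabp7 (5.57) were under the testing level (5.78). The 10 genes themselves had r from 0.994 for Il17re to 0.824 for Ramp1 and 0.803 for Blk, each of them part of the average.

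Binding partners and relatives of the 10 genes were compared from a list of 35 genes, of which 28 had a probe set of their own and 18 were tested. By limma 0 of the 18 passed at stage 2, against 4.21% of all tested probe sets. The median log2 fold change of the 18 was -0.14, against 0.01 over all tested probe sets. An unadjusted p under 0.05 was held by 7 of the 18, again without a count over all probe sets. Il17ra, the chain that Il17re joins, stood at -0.45 ± 0.12 (SE, n = 3 each, limma adjusted p = 0.0697), with mean intensities of 272 in Id3KO cells and 371 in WT cells. Il1rap, the accessory chain of Il1r1, was at -0.15 (adjusted p = 0.577), and Calcrl, the partner of Ramp1, at 0.50 (0.181). Ccl20, the ligand of Ccr6, was near the testing level (0.07, adjusted p = 0.743). Ramp2 and Ramp3 were at 0.03 and -0.24, Sdc3 at 0.07, and Fyn, a Src family kinase of T cells, at -0.01 (adjusted p = 0.971). Serpinb1b, Sdc2, Sdc4, Il1a and Il1b were below the level on all arrays. In the other 4 comparisons 0 of the 18 passed as well.

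Other genes of the NKT17 program were counted from a list of 25, of which 21 had a probe set of their own and 20 were tested. Of all tested probe sets, 2.39% were called lower and 1.82% higher at stage 2. Of the 20 genes, 9 were lower in Id3KO cells, 0 were higher and 11 did not pass. The median log2 fold change of the 20 was -0.71, against 0.01 over all tested probe sets. Lower were the transcription factors Rora (-1.16), Maf (-0.88) and Ahr (-2.32, with every Id3KO array below the testing level), the cytokine receptors Il7r (-1.07) and Il18r1 (-1.13), and the chemoattractant receptors Cxcr6 (-0.84) and Ltb4r1 (-0.59). Galectin 3 (Lgals3, -2.61) and the integrin chain Itgae (-3.83) were lower as well. Zbtb16 (0.08, adjusted p = 0.775), Stat3 (-0.16, 0.665) and Batf (-0.36, 0.154) did not pass.

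At stage 1, 5 of these 20 genes were lower in Id3KO cells, Rora (-1.45), Maf (-1.05), Ahr (-0.97), Lgals3 (-1.72) and Itgae (-2.31), where 0 of the 10 surface and effector genes passed. Of all tested probe sets, 0.343% were called lower and 0.459% higher. Ahr was below the testing level in Id3KO stage 1 (48.2 and 45.0) and above it on WT arrays alone, so it was tested only through those. The median of the 20 was -0.62, against -0.01 over all tested probe sets. Between stages in WT cells 1 of the 20 passed, Ahr, which was higher at stage 2 (log2 1.41, limma adjusted p = 0.0484). Of all tested probe sets, 0.012% were called higher there. This call lies close to the threshold, rests on 2 WT stage 1 arrays and was not followed through the other settings. Il17a was below the testing level on all 10 arrays, with means of 42.7 in Id3KO stage 2 and 44.4 in WT stage 2 cells. Il17f, Il22 and Il23r were not analysed here.

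Some of the 10 genes are also expressed by other cells, so markers of these were read on the same arrays. For B cells, which express Blk, Ms4a1 and Ebf1 were below the testing level on all 10 arrays. The sum over the 6 B cell markers measured was 302 to 320 in Id3KO stage 2, against 309.5 to 347 in WT stage 2. Cd79b was below the level on the Id3KO stage 2 arrays (49.7 to 51.6), against 59.8 to 83.6 on the WT stage 2 arrays (adjusted p = 0.0914). Cd79a (log2 0.04, limma adjusted p = 0.875), Pax5 (0.01, 0.976) and Cd22 (-0.03, 0.922) were near the level in both and overlapped. For plasma cells, which express Sdc1, Jchain and Tnfrsf17 were below the level on all arrays, and the sum over 6 markers was 992 to 1031 in Id3KO stage 2 against 1143 to 1287 in WT stage 2, most of it Xbp1. Irf4 (log2 -0.79, limma adjusted p = 0.104) and Xbp1 (-0.21, 0.244) were at lower values in Id3KO cells without overlap, as for 10.5% of all tested probe sets. Prdm1 (-0.28, 0.251) and Mzb1 (0.04, 0.841) overlapped. Of these 4, 0 passed and 3 had an unadjusted p under 0.05. The part of such cells in the values of Sdc1 was not tested.

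Markers of gamma delta T cells, which share Blk, Sox13 and Cd163l1 with NKT17 cells, summed to 1814 to 3662 in Id3KO stage 2, against 4410.5 to 5132 in WT stage 2, over 4 of 9 listed genes, 1 of which is Blk itself. Sox13 overlapped between the stage 2 genotypes, with means of 148 in Id3KO and 135 in WT cells (log2 0.13, adjusted p = 0.592). Trgv4, a variable segment of the gamma chain, had 1209, 1929 and 1475 in Id3KO stage 2 against 2245, 2144 and 2521 in WT stage 2 (log2 -0.61, limma adjusted p = 0.121). It was lower in Id3KO cells without overlap at both stages, with 1495 and 1034 in Id3KO stage 1 against 2264 and 2080 in WT stage 1. Of all tested probe sets, 10.5% were so at stage 2 and 22.8% at stage 1. The probe sets of Trgv4 and Cd163l1 end in _x_at, so their oligos can also bind other transcripts. Cd163l1 had 309.7, 1064 and 869 against 1642, 1826 and 1922 (log2 -1.44, adjusted p = 0.221), and 1547 and 366 in Id3KO stage 1 against 1391 and 1634 in WT stage 1. The part of such cells in the results was not tested, and the sort kept cells that bind the tetramer. Innate lymphoid markers summed to 2530.3 to 3744 against 4383 to 6197 over 5 genes, of which Il7r fell and Kit was below the level on all arrays. Of the others, Id2 (log2 -0.70, adjusted p = 0.0583) and Tnfsf11 (-0.20, 0.729) were at lower values in Id3KO cells. Cxcr5 was at higher ones without overlap (1.14, 0.0623), as were 10.9% of all tested probe sets.

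Of the remaining marker lists, double-positive thymocyte genes summed to 762 to 901 in Id3KO stage 2 against 1006 to 1097 in WT stage 2, with Rag1, Rag2, Cd8b1, Dntt and Ptcra below the level on all arrays and Cd1d1 lower (log2 -0.78, adjusted p = 0.0436). Myeloid and dendritic cell genes summed to 609.8 to 628 in Id3KO stage 2, against 584 to 600.3 in WT stage 2. Thymic epithelial genes summed to 386 to 404 against 376 to 395, and erythroid genes to 97.7 to 99.9 against 100.4 to 104. By limma 0 tested genes of these 3 lists were called at stage 2, and 1, of the myeloid list, had an unadjusted p under 0.05.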

How the data were processed

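RNA of 10 sorted iNKT samples in 4 groups was measured on Affymetrix arrays. The authors deposited probe set intensities on a linear scale, normalized with RMA per the submitters' processing notes, in a version not given there. No genome build of that annotation is given in the sources used. The plan had left the scale open, the table was linear, and log2 was taken without a pseudocount. Array intensities are not counts, so no counting interval was computed and the number of arrays limits precision.

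Probe sets above the table's median (log2 5.78) on at least 2 arrays were kept, 25061 of 45037, of which 20942 belong to 1 gene, 593 to several and 3526 to none in GEO's platform annotation. limma 3.58.1 in R 4.3.3 was fitted over all 10 arrays with 1 mean per group (6 residual and 2.80 prior degrees of freedom). Tests were two-sided, with Benjamini-Hochberg adjustment over these 25061, separately in each of 5 contrasts, and a call needs an adjusted p under 0.05. A gene is represented by its brightest kept probe set. The fit was tested on simulated data with known changes.

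Named are the 10 genes, Id3, members of the lists as examples, and the 8 genes whose pattern was most alike, leaving out names that begin with Gm or a digit or end in Rik. The 10 genes and the lists were chosen with earlier results of these data known, so no p is adjusted over a list. Old symbols were updated through RefSeq synonyms. Promoters came from RefSeq on GRCm38.p6 and were scanned in Python 3.11.15.

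The labels do not say that replicate numbers pair arrays. Deviations of same-numbered arrays correlated between -0.19 and 0.13, so the numbers were not taken as pairs. Besides each array left out, 10 alternatives were run: no filter, a stricter filter at log2 6.5, quantile normalization, centring on medians, array weights, a robust prior with an intensity trend, a replicate block, 1 probe set per gene, a test against a 2-fold change, and only the arrays compared.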

Additional observations from a re-analysis of the deposited data

Results flagged for a closer look

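Sdc1, the proteoglycan syndecan 1, stood out because its stage differences pointed in opposite directions in the genotypes, though neither passed the test. In Id3KO cells every stage 2 array was below every stage 1 array, as for 8.91% of all tested probe sets (log2 -0.82 ± 0.39, SE, n = 3 against 2, 95% interval from -1.71 to 0.06, limma adjusted p = 0.9999). In WT cells every stage 2 array was above every stage 1 array, as for 11.8% (log2 1.66 ± 0.39, SE, n = 3 against 2, limma adjusted p = 0.274). The difference between these was tested as an interaction and did not pass (log2 -2.48 ± 0.55, SE, 95% interval from -3.73 to -1.23, limma adjusted p = 0.507). A second probe set of Sdc1, 1415943_at, was at -0.43 in Id3KO and 1.34 in WT cells (interaction -1.77, adjusted p = 0.516), with no overlap of stages in either. For 1415944_at the Id3KO stages overlapped (-0.01) and WT was at 0.91. For 1448158_at, near the testing level, the stages overlapped in both genotypes, at 0.16 in Id3KO and -0.01 in WT cells. Of the 3 Id3KO stage 2 arrays, 1 was above the testing level for the brightest probe set. Without WT stage 1 replicate 1 the stage 1 log2 fold change of Id3KO over WT was 0.19, against -0.49 with it.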

How the results depend on the processing

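Over 20 other settings (19 for the interaction), the stage 1 genotype comparison and the stage comparison in Id3KO cells gave 0 called genes throughout. At stage 2 the count of called genes, 8 of 10, was 1 in the test against a 2-fold change, 7 with only the arrays compared, and 8 to 9 with each array left out in turn. The 9 came without Id3KO stage 2 replicate 2, when Blk passed (-1.49, adjusted p = 0.00534). Of the 8, Ccr6 passed in all 20 settings, and the log2 fold changes ranged from -3.61 to -3.13 for Ccr6 and from -1.23 to -0.84 for Aqp3, the least changed of the 8.

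In WT cells the count between stages, 1, was 2 with the stricter filter, quantile normalization, the trend with a robust prior, or 1 probe set per gene, each time Ccr6 and Serpinb1a, and 4 with array weights, when Il17re and Tmem176a joined them. It was 0 with the replicate block, in the test against a 2-fold change and with only the arrays compared, and 0 to 3 with each array left out. The count of the interaction, 0, was 1 (Ccr6) with array weights, 1 probe set per gene or the stricter filter, and 0 to 1 with each array left out. The adjusted p of Ccr6 between WT stages was 0.0563 with the replicate block, and that block changed no other call of the 10 genes. The cause was not tested.

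Values that changed sign were small and passed no test. Between stages in Id3KO cells, Ccr6 (0.0047) was -0.0015 with quantile normalization, -0.0022 with centred arrays and -0.10 with the replicate block, and Il1r1 (0.08) was -0.041 with that block. With each array left out, the ranges were -0.047 to 0.056 for Ccr6, -0.070 to 0.32 for Il17re, -0.058 to 0.17 for Il1r1, -0.0019 to 0.21 for Tmem176a, -0.088 to 0.27 for Tmem176b, -0.42 to 0.44 for Blk, -0.10 to 0.043 for Aqp3 and -0.065 to 0.012 for Ramp1. For genotype at stage 1 they were -1.18 to 0.19 for Sdc1 and -0.11 to 0.080 for Serpinb1a, and at stage 2 -0.045 to 0.089 for Sdc1 1448158_at.

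Over all probe sets, stage 2 calls (457 higher and 598 lower) were 238 and 266 without WT stage 2 replicate 3, and 3 and 7 in the test against a 2-fold change, and stage 1 calls (115 and 86) were 9 and 6 without WT stage 1 replicate 1 and 54 and 45 with the replicate block. The 2 arrays per genotype at stage 1 and values near the testing level limit what was called.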
